A study of Mus musculus with 2 samples.

Results

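Galectins and siglecs are lectins through which macrophages read sugars on their own surface and on other cells. The genes described here are 10 of them or their close partners: Lgals1, Lgals3, Lgals8 and Lgals9 (galectins), Lgals3bp (a secreted glycoprotein that galectins bind), and Siglec1, Siglece, Siglecg, Cd33 and Cd22 (siglecs). A probe was taken as a member when its RefSeq accession belonged to one of these genes, which gave 13 of the 39424 non-control probes and 10 of the 20656 genes that could be named. 7 genes had 1 probe, and Lgals3bp, Siglec1 and Siglecg had 2 each.

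The cells were bone marrow-derived macrophages (BMDMs), cultured from marrow with the growth factor M-CSF, which drives progenitors to become macrophages. They came from 8-week-old male mice with floxed alleles of Crif1 (Crif1 f/f), which encodes a mitochondrial ribosome factor. Both arrays share this genotype, and no Cre driver is named for the array samples. 1 culture was untreated (labelled 18 h) and the other received interleukin-4 (IL-4), the type 2 cytokine that acts through the transcription factor STAT6, for 18 h. The dose used for the arrays and the number of animals behind each RNA were not given in the sources used here. Each condition was 1 single-colour Agilent array, so no difference below has a replicate check, a test or a p-value. The arrays shared a slide, and a difference between arrays cannot be told apart from a difference between conditions.

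Galectins are made in the cytosol, leave the cell by an unconventional route and bind galactose-containing chains. Outside the cell they cross-link glycoproteins, and inside it they bind sugars exposed on broken phagosomes and lysosomes. Siglecs are membrane receptors of the immunoglobulin superfamily that bind sialic acid, the sugar that caps many of the same chains. Siglec1 (CD169, sialoadhesin) has no inhibitory motif and works as an adhesion and capture receptor, while Siglece, Siglecg, Cd33 and Cd22 carry tyrosine motifs in their tails, which in most of them recruit the phosphatase SHP-1. A galectin ligand and a siglec ligand can therefore be the same chain without and with its sialic acid.

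The regulatory sequence next to the start of 3 of these genes is shown because each holds a motif of a factor that bears on macrophages or on IL-4. The windows are the 250 bases before the RefSeq start in mouse build GRCm38.p6, written 5′ to 3′ on the strand of the gene. The Lgals3 window (chr14:47373610-47373859, + strand) was the only one among the members with the STAT6-type motif TTCNNNNGAA, which it held at 238 and 225 bases before the start. The Lgals9 window (chr11:78984925-78985174, − strand) was the only one with GAAANNGAAA, an interferon response element, here on the opposite strand and at 55 bases before the start. The Cd33 window (chr7:43533172-43533421, − strand), from the member with the largest difference between the arrays, held GAGGAA, the core bound by the myeloid factor PU.1, at 226 bases before the start. The motif named here for each window is in capitals. The Lgals9 window also held GAGGAA, at 244 and 199 bases before the start, which is left in lower case.
Lgals3: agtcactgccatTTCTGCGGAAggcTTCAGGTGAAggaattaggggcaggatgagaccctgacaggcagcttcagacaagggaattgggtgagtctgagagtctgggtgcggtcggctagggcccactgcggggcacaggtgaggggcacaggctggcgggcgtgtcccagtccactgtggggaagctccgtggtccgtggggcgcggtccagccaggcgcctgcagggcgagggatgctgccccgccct
Lgals9: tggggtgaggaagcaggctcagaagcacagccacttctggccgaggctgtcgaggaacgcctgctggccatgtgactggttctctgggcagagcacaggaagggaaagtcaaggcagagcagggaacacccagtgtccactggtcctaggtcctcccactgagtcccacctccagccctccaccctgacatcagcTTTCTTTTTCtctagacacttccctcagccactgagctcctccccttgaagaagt
Cd33: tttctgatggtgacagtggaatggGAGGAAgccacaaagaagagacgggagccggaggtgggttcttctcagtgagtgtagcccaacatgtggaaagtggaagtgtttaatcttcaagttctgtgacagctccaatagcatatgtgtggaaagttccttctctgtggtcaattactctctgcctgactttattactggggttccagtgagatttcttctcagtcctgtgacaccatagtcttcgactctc
A window was at hand for 8 of the 10 genes, all except Lgals1 and Siglec1, and Siglecg had 2, which makes 9 windows. On either strand, TTCNNNNGAA occurred in 1 of these 9 windows and in 5.89% of 32536 windows of all genes. GAAANNGAAA occurred in 1 of 9 and in 2.98% of all windows. GAGGAA, a short motif, occurred in 4 of 9 (those of Lgals9, Siglece and Cd33 and 1 of Siglecg) and in 23.4% of all windows. A match describes the letters in the window and no binding was measured. Among IL-4 marker genes, Retnla held TTCNNNNGAA at 145 bases before its start, whereas the windows of Chil3 and Mrc1 held none. No window was at hand for the marker Arg1.

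All 10 genes were well above background on both arrays, the detection flag that the scanner software sets for a spot. Differences are given as IL-4 minus untreated on the log2 scale, after each array's intensities were divided by their 75th percentile. Of the 10 genes, 0 were at least 2-fold higher with IL-4, where 3.06% of the 14073 genes detected on at least 1 array were. Likewise 0 of 10 were at least 2-fold lower, against 3.35% of all detected genes. With a limit of 1.5-fold, 0 of 10 were higher (6.36% of all genes) and 2 of 10 were lower, Cd33 and Siglecg (8.94% of all genes). The median of the 10 differences was -0.12, beside -0.01 over the 12744 genes measured on both arrays. The 4 galectins had a median of -0.06 and the 5 siglecs a median of -0.44, which is the value of Cd22. The 3 lowest members, Cd33, Siglecg and Cd22, were siglecs, whereas Siglec1 (-0.06) and Siglece (-0.04) differed little. Siglecs outside the members were not as low either: Siglecf was at -0.02, Siglech at 0.02 and Mag at -0.14. The medians thus depend on which siglecs were members. The IL-4 markers on the same arrays show the size of a response here: Mrc1, the mannose receptor, was 5.33-fold higher, Chil3 14.2-fold, Arg1, the arginine-degrading enzyme, 216-fold, and Retnla at least 595-fold.

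**Figure D1:**
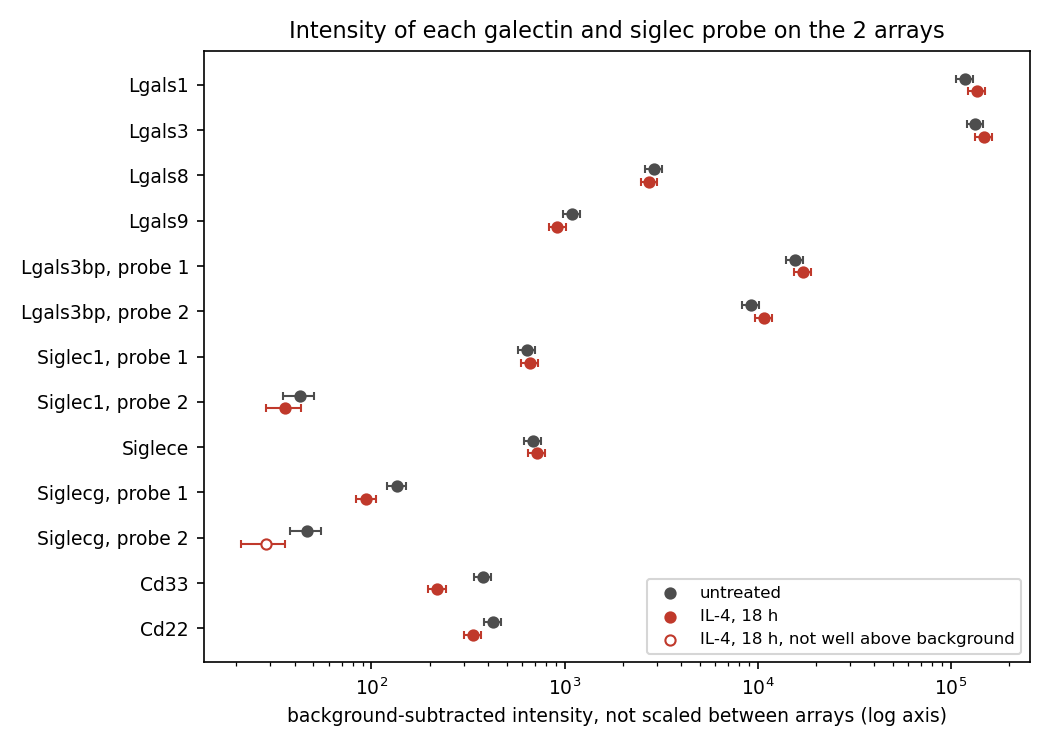
Background-subtracted intensity of the 13 probes (log axis, before scaling between arrays) on the untreated array (grey) and the IL-4 array (red). Bars are the scanner software's error of each intensity, the open circle is not well above background, and Cd33 shows the widest gap among the spots measured on both arrays.

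Lgals1 encodes galectin-1, a lectin that dampens T cell and macrophage activation. Its intensity was 117927 without and 136425 with IL-4, a scaled difference of 0.11 (1.08-fold). Lgals3 encodes galectin-3, which macrophages make in quantity and which takes part in phagocytosis and in alternative activation. Its intensity was 133698 without and 148455 with IL-4, a scaled difference of 0.05 (1.04-fold). Both differences were smaller than the error of 0.20 that the scanner software gives for them. For bright spots that error is close to a fixed share of the intensity (11793 of 117927 for untreated Lgals1). It holds no measured spread between cultures. Lgals1 was the only member higher with IL-4 under every scaling tried (0.05 to 0.43), and 30.1% of all genes had a difference at least as high. Lgals3 was marginally below 0 with the 75th percentile taken over probes detected on both arrays and with cyclic loess (lowest -0.01). The member whose promoter window held STAT6-type motifs thus lay between the 25th and 75th percentile of all genes.

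Lgals8 encodes galectin-8, a tandem-repeat lectin that senses damaged vesicles and calls in autophagy. Its intensity was 2891 without and 2748 with IL-4, a scaled difference of -0.17 (1.13-fold lower), within the software error of 0.20. With median or spike-in scaling the same difference was above 0 (highest 0.15). Lgals9 encodes galectin-9, a tandem-repeat galectin known for binding the T cell receptor TIM-3 and induced by interferons in many cells. Its intensity was 1096 without and 918 with IL-4, a scaled difference of -0.35 (1.28-fold lower), beyond the software error of 0.20. Lgals9 was below 0 under all 11 settings (-0.41 to -0.03), and 12.7% of all genes had a difference at least as low. Not all of these settings are separate checks, here or where they are counted below. Keeping flagged spots and the authors' table left every member almost unchanged, and the probe rule cannot move a gene with 1 probe. Lgals1 and Lgals3 were thus slightly higher and the tandem-repeat galectins Lgals8 and Lgals9 slightly lower, all within 1.5-fold. Of these galectins only Lgals9 differed by more than its software error, and for Lgals8 and Lgals3 the sign depended on the scaling as given above.

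Lgals3bp encodes the galectin-3-binding protein. Its brighter probe read 15555 without and 17038 with IL-4, a difference of 0.03, and its dimmer probe 9247 and 10762, a difference of 0.12. Both were within the software error of 0.20, and the probes differed from each other by 0.09, less than the median gap of 0.12 between probes over the 2763 genes with 2 probes measured on both arrays. The sign of the brighter probe turned under 3 scalings (75th percentile over probes detected on both arrays, quantile and cyclic loess; lowest -0.07).

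Siglec1 encodes sialoadhesin, a receptor of tissue macrophages that captures sialylated particles and is strongly induced by type I interferon. Its brighter probe read 640.0 without and 658 with IL-4, a difference of -0.06. Its dimmer probe read 42.5 and 35.8, a difference of -0.35 with a software error of 0.40. The dim probe thus gave no difference beyond its error, and the gap of 0.29 between the probes was wider than in 78.9% of the genes with 2 probes. Siglece encodes Siglec-E, the main inhibitory CD33-related siglec of mouse myeloid cells. Its intensity was 687 without and 718 with IL-4, a difference of -0.04, within the software error of 0.20. For Siglec1 and Siglece alike, the difference was above 0 with median scaling, spike-in scaling and no scaling (highest 0.26 and 0.28).

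Cd33 encodes the mouse CD33 receptor, a myeloid siglec. Its intensity was 378 without and 219.6 with IL-4, a difference of -0.88 (1.84-fold lower) with a software error of 0.21. This was the lowest value among the members, 4.23 times its software error, and only 272 of 12744 genes (2.13%) had a difference at least as low. The ratio of 4.23 is not a test, since the software error holds no spread between cultures. The spread between spots of probes printed 10 times per array, taken at a similar signal, was 0.08 (SD, 53 probes), which covers spotting and scanning within an array and neither culture nor labelling. Cd33 was below 0 under all 11 settings, from -0.94 to -0.56, and in none of them reached 2-fold. As for Lgals9, the probe rule, the flagged spots and the authors' table could hardly move it.

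Siglecg encodes Siglec-G, an inhibitory receptor best known on B-1 cells and also found on myeloid cells. Its brighter probe read 135 without and 94.2 with IL-4, a difference of -0.62 (1.54-fold lower) with a software error of 0.24. The dimmer probe read 46.2 without IL-4 and 28.4 with it, where it was not well above background. That reading lay above the lowest detected signal, so its 1.75-fold lower value is the measured difference and no strict bound. Both probes read lower on the IL-4 array, the dim one from an undetected reading and with an error of 0.45. Siglecg was below 0 under all 11 settings (-0.71 to -0.30), and 4.66% of all genes had a difference at least as low. Probes of a signal like that of the brighter probe had a spread between spots of 0.16 (SD, 41 probes) and a median difference of -0.10.

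Cd22 encodes a siglec that restrains the B cell receptor. Its intensity was 425 without and 336 with IL-4, a difference of -0.44 (1.36-fold lower) with a software error of 0.21. It was below 0 under all 11 settings (-0.49 to -0.12), and 9.02% of all genes had a difference at least as low. Among the B cell markers read here, Cd79a, Ms4a1 and Pax5 gave no signal well above background, with or without IL-4. Cd79b read 473 and 395, a difference of -0.36. The summed unscaled intensity of these 4 markers, 546 without and 423 with IL-4, is therefore mostly that of Cd79b. The part of B cells in the Cd22 or Siglecg value was not tested. In a bulk RNA sample, fewer cells of a kind and less RNA per cell cannot be told apart.

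**Figure D2:**
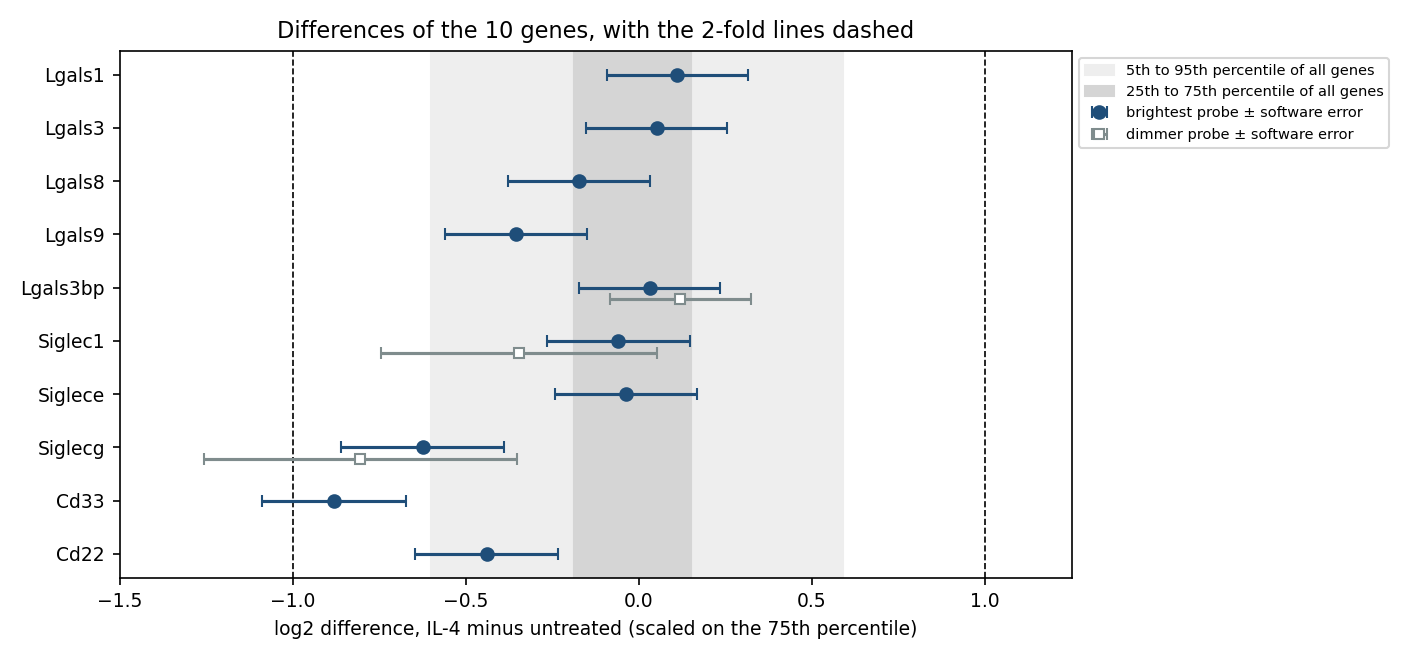
Scaled log2 difference, IL-4 minus untreated, of each gene's brightest probe (filled circles) and dimmer probe (open squares), with the scanner software's error as bars. Grey bands run from the 25th to the 75th and from the 5th to the 95th percentile of the 12744 genes measured on both arrays. Dashed lines mark 2-fold, and the open square of Siglecg rests on an IL-4 reading not well above background. Cd33 and Siglecg lie outside both bands.

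Of the 10 genes, 4 differed by more than the software error (Lgals9, Siglecg, Cd33 and Cd22) and 3 by more than 2 such errors (Siglecg, Cd33 and Cd22). These counts are not tests, because that error is for most probes close to a fixed share of the intensity. The 25th and 75th percentiles of all genes were -0.19 and 0.15, and the 5th was -0.60. RNA spike-ins added to both samples bear on these values, since the 7 brightest were themselves lower on the IL-4 array by scaled differences of -0.40 to -0.08. The spike-in nearest in signal to Cd33 and Cd22 differed by -0.40, beside -0.88 for Cd33 and -0.44 for Cd22. The one nearest to the brighter Siglecg probe differed by -0.72, beside -0.62 for that probe. The one nearest to Lgals9 differed by -0.33, beside -0.35 for Lgals9. Of these 4 genes only Cd33 was thus far below its nearest spike-in. That spike-in was brighter than Cd33 (unscaled log2 signal 9.04 beside 8.17), and the next dimmer one, at 6.75, differed by -0.72. The other members, by their brighter probes, lay above their nearest spike-ins. The median of all genes, -0.01, also lay above the 7 brightest spike-ins. The spike-in nearest to the dim probes of Siglec1 and Siglecg was near background with IL-4 and gives no difference. Scaling on the spike-ins moved the median of all genes by 0.32 and scaling on the array median moved it by 0.21. A scaling that adds the same shift to every gene cannot move a gene relative to the median of all genes, so on that measure quantile normalization, cyclic loess and normexp were the alternatives that could change a value. Over the reported scaling and these, Cd33 lay between -0.87 and -0.70, Siglecg between -0.61 and -0.44, Cd22 between -0.43 and -0.38, and Lgals9 between -0.35 and -0.32. Lgals1 lay between 0.04 and 0.18 on the same measure. The order of the members by difference was thus set by Cd33 and Siglecg at the lower end, while Siglece and Siglec1 lay within 0.08 of the median of all genes.

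**Figure D3:**
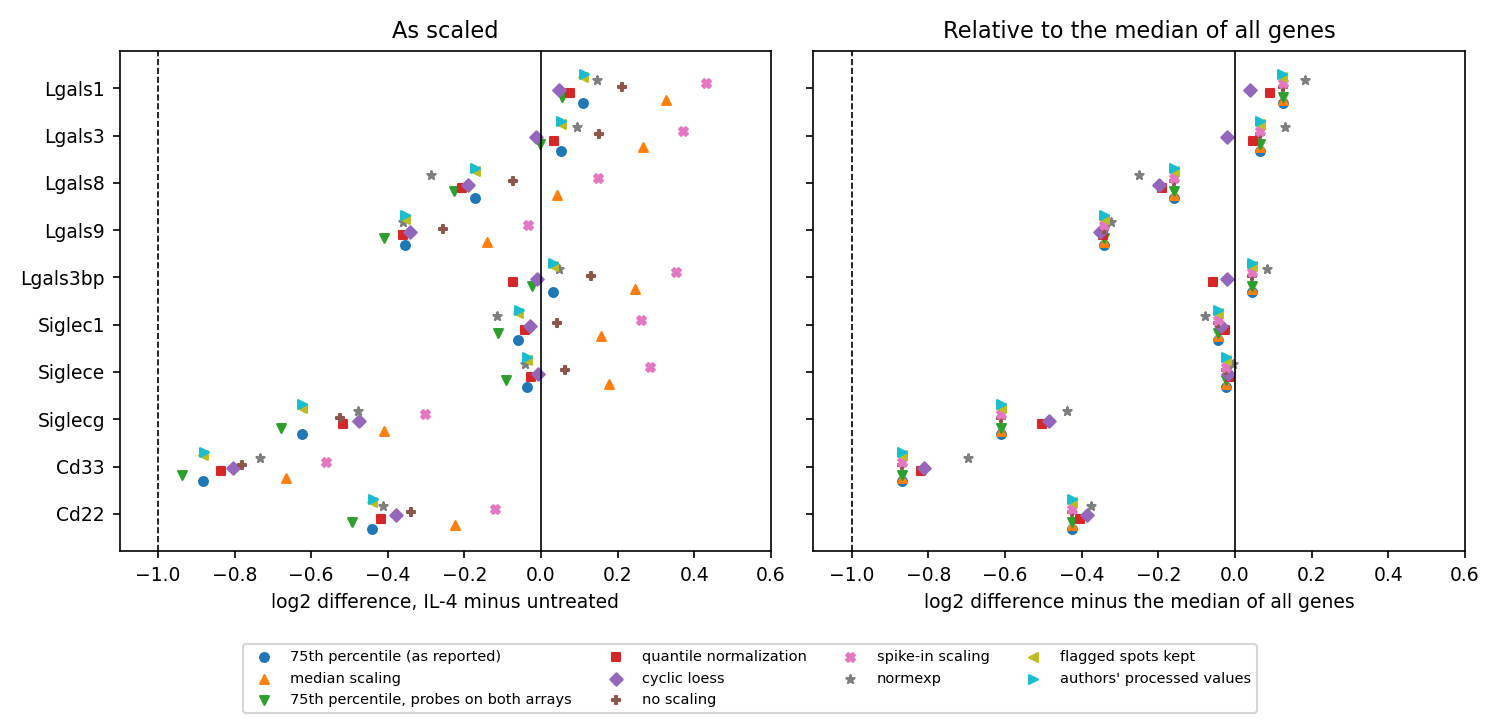
Log2 difference of the 10 genes under 10 scalings (symbols), as scaled (left) and after subtraction of the median of all genes under the same scaling (right), with dashed lines at 2-fold lower. On the left 5 genes change sign with the scaling and Lgals9, Siglecg, Cd33 and Cd22 stay below 0, and on the right only quantile normalization, cyclic loess and normexp can separate a gene's symbols, since the other settings shift all genes alike or nearly so.

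Siglecg, Cd33 and Siglece lie near each other on chromosome 7, in the cluster of CD33-related siglecs. Their differences were -0.62, -0.88 and -0.04. The genes between them that were measured on both arrays, named after their values were seen, were Nkg7 (-0.30), Etfb (0.22), Iglon5 (-0.41), Zfp658 (-0.08) and Zfp719 (-0.35). None of these was as low as Siglecg or Cd33.

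Of 10 other galectin and siglec genes, 9 were matched, and 7 were detected on at least 1 array. The 6 measured on both arrays had a median of -0.01, from -0.14 (Mag, the myelin siglec) to 0.05 (Lgalsl, a galectin-like protein). Lgals7, an epithelial galectin, read 52.1 without IL-4 and 6.41 with it, where it was not well above background, a bound just past 2-fold lower that held in 4 of 10 scalings. No other gene of the list passed 2-fold. Of all detected genes, 3.06% were past 2-fold higher and 3.35% past 2-fold lower.

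Sialyltransferases, the enzymes that make siglec ligands, attach sialic acid to the end of a chain, and of 19 matched 13 were detected, of which 0 were past 2-fold higher (3.06% of all genes) and 1 past 2-fold lower (3.35%). The lower one was St3gal5, the GM3 ganglioside synthase, with 8665 without and 3961 with IL-4, a difference of -1.23 (2.34-fold lower, past 2-fold in 9 of 10 scalings). St3gal1, which sialylates core 1 O-glycans, had the highest value, 4895 without and 10370 with IL-4, a difference of 0.98 (1.98-fold higher, past 2-fold in 3 of 10 scalings). St6gal1, which makes the alpha2,6-linked sialic acid that CD22 binds and was named after its value was seen, read 693 and 1309, a difference of 0.82. The 12 measured on both arrays had a median of 0.21, which lay between 0.15 and 0.53 over the scalings. The sialyltransferases thus differed in both directions and none of the 3 genes named changed direction with the scaling.

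The 6 genes of sialic acid synthesis had a median of -0.12 and none reached 2-fold. Their extremes were Gne, the first enzyme of the pathway (0.20), and Cmah, which turns the acetyl form of sialic acid into the glycolyl form preferred by mouse CD22 (-0.97). Cmah was dim, with 64.5 without and 35.3 with IL-4 and a software error of 0.35, and was past 2-fold lower in 1 of 10 scalings. Among sialidases, which remove the cap, 3 of 4 were detected and none reached 2-fold. Neu1, the lysosomal enzyme, differed by -0.27 and Neu3 by 0.10, and each changed sign in 1 of 10 scalings.

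The 9 matched genes that build galectin ligands had a median of -0.01 and none reached 2-fold. They ranged from Mgat5, which adds the branch favoured by galectin-3 (-0.52), to B3gnt2, which extends poly-N-acetyllactosamine (0.33). Of 11 matched galectin partners, 0 were past 2-fold higher (3.06% of all genes) and 1 was past 2-fold lower (3.35%). The lower one was Mertk, a receptor for the engulfment of dying cells, with 2263 without and 1102 with IL-4. Its difference was -1.14 (2.20-fold lower, past 2-fold in 8 of 10 scalings). Cd44, a hyaluronan receptor decorated with galectin ligands, had the highest value, 0.65, and the list had a median of -0.02.

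The 8 genes of siglec signalling had a median of -0.08 and none reached 2-fold. Their extremes were Inpp5d, the inositol phosphatase SHIP-1 (-0.47), and Cbl, a ubiquitin ligase (0.29). Among 3 detected siglec ligands, Cd24a, a ligand of Siglec-G, differed by -0.30 and was above 0 in 1 of 10 scalings, and Spn, the sialomucin CD43, differed by 0.22. All of these values lay above those of Cd33 and Siglecg, and no difference between the lists was tested.

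**Figure D4:**
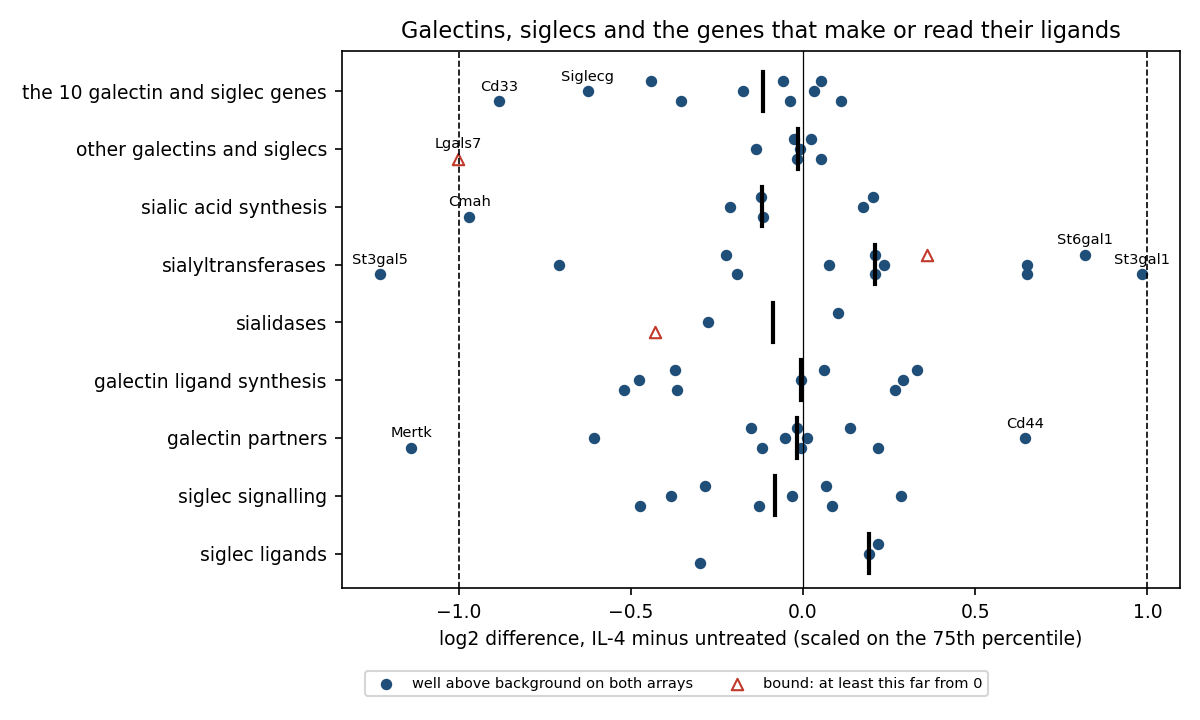
Scaled log2 difference, IL-4 minus untreated, of each detected gene in the 10 galectin and siglec genes and in 8 related lists, with medians of genes measured on both arrays as black bars, bounds as open triangles and 2-fold as dashed lines. St3gal5 and Mertk lie past the lower line and Lgals7 is a bound at it, St3gal1 lies just inside the upper line, and none of the 10 genes reaches either.

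Since Lgals9 and Siglec1 are known interferon-induced genes, interferon-stimulated genes were read beside them. Of 14 matched, 13 were detected. Past 2-fold were 3 that were higher (3.06% of all genes) and 1 that was lower (3.35%), with a median of 0.28 over the 11 measured on both arrays. Those higher were Usp18 (1.45), Irf7 (1.34) and Ifit1 (a bound of at least 2.02-fold), past 2-fold in 9, 9 and 8 of 10 scalings. Ifi44 was lower, by at least 3.45-fold and past 2-fold in 9 of 10 scalings, and the lowest gene measured on both arrays was Ifit2 (-0.67). Lgals9 (-0.35) and Siglec1 (-0.06) were thus below the median of this list.

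Markers of cell types were read as a check of the label. Of 5 matched macrophage markers all were well above background on both arrays, and their median was -0.71, from -0.78 to -0.39 over 10 scalings. Adgre1 (F4/80) was at 0.17 and Csf1r, the M-CSF receptor, at 0.09. Itgam (CD11b) was at -0.71 (1.63-fold lower, below 0 in all 10 scalings). Fcgr1, a high-affinity Fc receptor, and Mertk were at least 2-fold lower (-1.23 and -1.14), which is 2 of 5, beside 3.35% of all detected genes. Thus 3 of the 5 were lower alongside Cd33 and Siglecg. Of the eosinophil, plasmacytoid dendritic cell and T cell markers, 3, 4 and 2 of 5 each were detected, and of those only Ly6d was past 2-fold, lower (-1.32). All 4 matched neutrophil markers were detected and none was past 2-fold. Differences alone do not identify the cells, and some of these markers were bright. Without IL-4, S100a9 read 26443, S100a8 7266 and Siglech 29067, beside 146026 for Csf1r, 23816 for Adgre1 and 8399 for Itgam. The other markers of the non-macrophage lists read 5731 (Bst2) or less. The part of these cells in the members' values was not tested.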

How the data were processed

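RNA of 1 untreated and 1 IL-4-treated BMDM culture was measured with a Cy3 label on 1 array each. The deposited scanner files, from Feature Extraction 10.10.1.1, hold an intensity per spot from which the software had subtracted background and a spatial trend. A second deposited table gives the authors' log2 values per probe, whose tool and centring are not given in the sources used here. Its columns had medians of 0.16 (untreated) and 0.02 (IL-4), its direction followed the labels, and its differences for the 13 probes were at most 0.00057 away from those used here.

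Control spots and flagged outliers were left out, spots of a probe were averaged, and log2 intensity was scaled on each array's 75th percentile (9.84 untreated, 9.94 IL-4) with Python 3.11.15, numpy 2.4.6 and pandas 2.3.3. Genes were named through RefSeq accessions of the GRCm38.p6 table, and the brightest probe stood for a gene. A gene counted as changed at 2-fold. A probe well above background on 1 array gave a bound against the lowest detected signal (-4.97 untreated and -5.14 IL-4, scaled log2) or its own, whichever was higher. Where its own was higher, as for the dim Siglecg probe, the value is the measured difference and no strict bound. The software error is the software's own error of both intensities, combined, which for bright spots is close to a fixed share of the intensity. Precision is limited by having 1 array per condition. Spots well above background made up 59.8% (untreated) and 57.4% (IL-4).

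Alternatives were other scalings, quantile, cyclic loess and normexp (limma 3.58.1, R 4.3.3, offset 50, on median pixel intensity because no mean column exists), the authors' table, the probe rule, the detection filter and a 1.5-fold limit. The fold calls were tested on simulated data with small, even noise and large true changes. That checks the rule alone and not the accuracy of differences between real arrays. In each list other than the cell type markers, genes past 2-fold and the highest and lowest measured on both arrays were named. Of the cell type markers, those past 2-fold were named, and the extremes of each list were not always. Members and lists were chosen with earlier results of these data known. 1 cell type marker is not reported here.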

Additional observations from a re-analysis of the deposited data

How the results depend on the processing

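No paired analysis was possible because the untreated and the IL-4 cells were measured on 1 array each. The members at least 2-fold higher or lower numbered 0 under every scaling, probe rule and detection filter tried, and a 1.5-fold limit gave 2 lower. The median difference of the members, -0.12, became 0.10 with median scaling and 0.20 with spike-in scaling, which add the same shift to every gene, and lay between -0.20 and -0.02 under the other settings. Single members moved by more than their error with these 2 scalings only, 19 values in all, and the detection filter could not move them, since all 10 genes were well above background on both arrays. The 431 genes at least 2-fold higher became 756 with spike-in scaling, 250 with normexp, 881 with no detection filter and 895 at 1.5-fold. The 472 genes at least 2-fold lower became 299 with median scaling, 308 with quantile normalization, 239 with spike-in scaling, 153 with normexp, 870 in the authors' table, 184 with genes measured on both arrays only, 2076 with no detection filter and 1258 at 1.5-fold. Genes higher made up 47.7% of those past 2-fold, against 67.8% with median scaling, 65.0% with quantile normalization, 59.7% with cyclic loess, 57.8% unscaled, 76.0% with spike-in scaling, 62.0% with normexp, 61.6% with genes measured on both arrays only and 29.8% with no detection filter. Beyond these constructions the cause was not tested. The probes of Siglec1 and Siglecg near background limit what those genes show.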
